A study of Mus musculus with 16 samples.

Results

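Spi1, called Sfpi1 in the mouse genome build mm9, encodes PU.1, and its H3K27ac was followed through 4 cell types of the dendritic cell lineage in the regions that the authors called as differing. The members are the regions of the authors' 4 deposited lists that overlap chr2:90910000-90960000 (mm9), a window of 50 kb with the gene at about 90937000 to 90956000 and an upstream regulatory element about 14 kb before its start. The window held 54 of the 273958 listed regions. There were 10 of 69958 in the list of pDC and CDP, 11 of 66319 in that of pDC and cDC, 19 of 76865 in that of cDC and CDP, and 14 of 60816 in that of CDP and MPP. The rule sets the window by position, around a gene picked with earlier results of these data known.

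H3K27ac, an acetylation of histone H3 found at active promoters and enhancers, was assayed in sorted C57BL/6 mouse cells by sequencing of immunoprecipitated chromatin (ChIP-seq). The groups were plasmacytoid dendritic cells (pDC), classical dendritic cells (cDC), common dendritic cell progenitors (CDP) and multipotent progenitors (MPP), with 2 libraries each and no treatment or genetic change named in the labels. CDP arise from MPP and give rise to cDC and pDC, and each list sets 2 of these cell types against each other. Per the labels, fragments of 200 to 400 bp were pulled down with 1 µg of the antibody. A lower signal can come from fewer cells of a population or from less acetylation per cell, which cannot be told apart in such bulk samples.

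PU.1 is an ETS-family transcription factor that myeloid cells, B cells and dendritic cells need for their development. Its gene is known to be controlled by the promoter together with a cluster of upstream enhancers, of which the upstream regulatory element is the best studied and is bound by PU.1 itself, by Runx1 and by C/EBP factors. The dose of PU.1 is known to matter for lineage choice, and PU.1 is known to be higher in cDC than in pDC, which use the related factor Spi-B. In the gene order of RefSeq (GRCm38.p6), Spi1 stands between the lncRNA gene Gm39874, followed by Slc39a13, on its upstream side and Mybpc3 on its downstream side. Which of the listed mm9 regions fall within these neighbours was not checked, since no mm9 annotation was used, and for the same reason the labelled cell types were not checked against marker genes.

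The deposited signal is a whole number per region and library that is scaled separately in each list, so that levels are compared only inside 1 list. How many reads stand behind a value is unknown. The 2 libraries of a group are called first-listed and second-listed, and nothing in the labels says whether they came from separate animals or cultures, so that p-values measure only the spread between these libraries. In the window the second-listed CDP library had 1.41 to 1.48 times the signal of the first, against 1.13 to 1.17 times over all autosomal regions of the same lists. The second-listed cDC library had 1.48 to 1.49 times the signal of the first in the window, against 1.41 times over the autosomal regions. The pDC libraries were closer to each other in the window, at 0.927 to 0.937 times, against 1.09 to 1.10 times over the autosomal regions. The MPP libraries stood at 0.872 times in the window, against 0.785 times over the autosomal regions. Making the autosomal totals of a list equal shifted the median log2 ratio of all its regions by 0.14 for CDP over MPP, 0.08 for cDC over CDP, -0.30 for pDC over CDP and -0.46 for pDC over cDC.

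Listed regions covered 18.7 kb of the window in at least 1 list and 11.6 kb in all 4. They fell into a block from 16.8 to 7 kb before the start, a block around the start itself, a far upstream block from 27.45 to 24.35 kb before the start, and separate regions within the gene. From 24.35 to 16.8 kb and from 7 to 0.8 kb before the start no list had a region, which does not show equal signal there. The promoter region of 3.55 kb in the cDC and CDP list was among the top 0.816% of that list by signal, and that of 3.5 kb in the CDP and MPP list among the top 1.05%. Both were also long, among the top 1.31% and 1.06% by length. By signal per kb they were only among the top 10.1% and 10.3%. The central region of the upstream element in the pDC and CDP list, of 0.6 kb, was among the top 3.31% by signal per kb and the top 14.1% by signal.

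**Figure D1:**
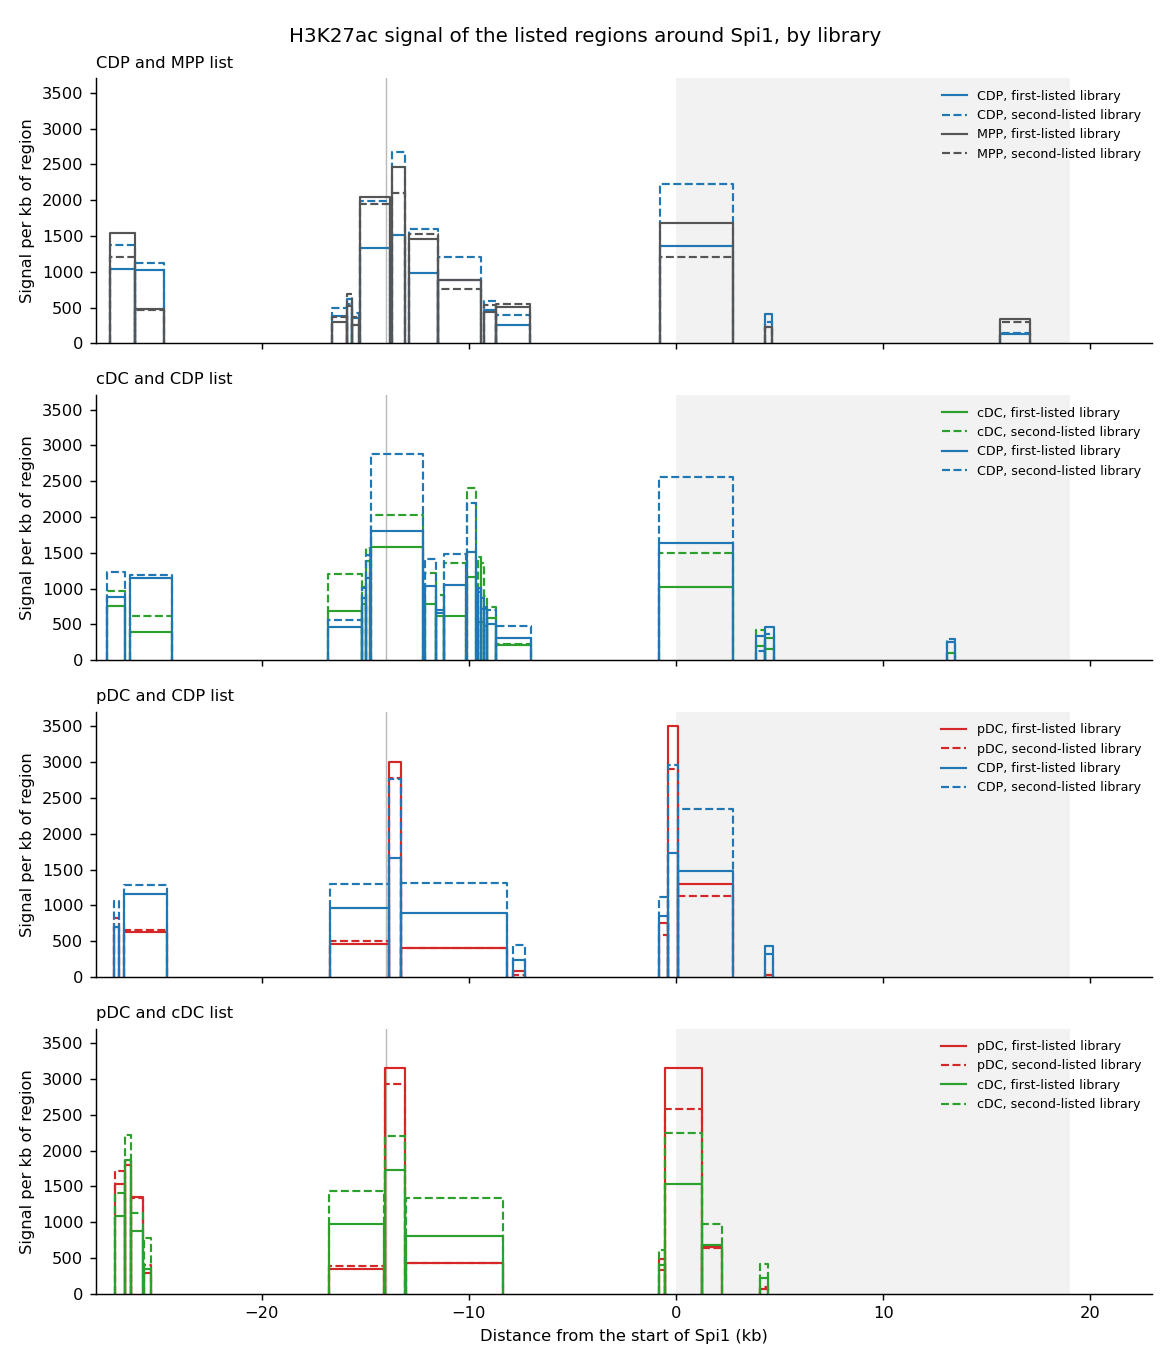
H3K27ac signal per kb of each listed region (vertical axis) against the distance from the start of Spi1 in kb (horizontal axis), in 1 panel per list, with 1 line for each library. The grey field is the gene as placed by the rule of the window and the grey line marks 14 kb upstream; in both panels with pDC, narrow regions near that line and at the start carry the highest pDC signal, while the wide regions beside the upstream line lie lower in pDC than in the other cell type.

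In pDC, set against CDP, acetylation was lower over most of the upstream block, while a narrow centre of the element and a narrow centre of the promoter were listed as higher. The region chr2:90920301-90923150, from 16.7 to 13.85 kb before the start, had signals of 1322 and 1431 in the pDC libraries, against 2737 and 3708 in CDP. The groups did not overlap, and the limma log2 ratio was -1.21 ± 0.21 (SE), with a Benjamini-Hochberg adjusted p of 0.0041. On the other side of the centre, chr2:90923751-90928850, the longest listed region of the window with 5.1 kb, had 2053 and 2045 in the pDC libraries, against 4544 and 6696 in CDP. Its limma log2 ratio was -1.43 ± 0.22 (SE), with an adjusted p of 0.0025. Between them lies the centre, chr2:90923151-90923750, which had 1799 and 1668 in the pDC libraries, against 993 and 1661 in CDP. The lowest pDC value stood only just above the highest CDP value, and the limma log2 ratio of 0.43 ± 0.27 (SE) did not pass, with an adjusted p of 0.24. It depended on the CDP libraries and the scaling: it was 0.80 (adjusted p 0.044) without the second-listed CDP library, 0.06 (adjusted p 0.77) without the first, and 0.13 (adjusted p 0.66) with equal autosomal totals.

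The authors listed 2 of the 10 regions as higher in pDC than CDP (50.2% of the list) and 8 as lower (49.8%). Across the window, limma called 5 of the 10 regions lower in pDC than CDP and 0 higher, where 19.7% of the whole list were called lower and 25.2% higher. At an unadjusted p under 0.05 there were 6 lower and 0 higher. No share of the list was computed for this count, here or below, so it cannot be read against the list. Non-overlapping libraries with a ratio of at least 2 gave 4 lower (21.4% of the list) and 0 higher (26.2%). Both pDC libraries lay below both CDP libraries in 7 regions, where this held for 37.8% of the list, and above them in 1, where this held for 39.7%. The median log2 ratio of the 10 regions was -0.77, beside 0.03 over all regions of the list. These regions were listed because the authors called them as differing from the same 4 libraries, so their p-values are not independent of that choice. Without the first-listed pDC library the adjusted p became 0.069 and 0.057 at the wide regions of the upstream block and 0.077 far upstream, and without the second it became 0.056, 0.056 and 0.063, with log2 ratios between -1.43 and -0.89 in all of these.

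The contrast of centre and flanks does not move with the scaling of a library, and it is given as a description with no test. All 4 pairs of window regions at most 100 bp apart in this list had opposite deposited directions, as had 80.2% of such pairs over the list. The bounds drawn from these libraries thus fix the sign of the contrast. The log2 ratio of pDC to CDP was 1.64 ± 0.16 (SE) higher in the centre than in the flank before it. It was -1.86 ± 0.14 (SE) for the flank behind it relative to the centre. Put as shares, the centre held 34.8% and 32.4% of the upstream element signal in the pDC libraries, against 12.0% and 13.8% in CDP, in 7.02% of the listed length. Per kb, the centre had 7.06 and 6.36 times the signal of the rest of the element in pDC, against 1.81 and 2.12 times in CDP.

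The promoter showed a smaller version of the same layout. The 0.5 kb region at the start, chr2:90936601-90937100, had 1752 and 1450 in the pDC libraries, against 864 and 1479 in CDP, so that the groups overlapped, and its log2 ratio of 0.50 ± 0.29 (SE) did not pass (limma adjusted p 0.20). The 2.65 kb behind it, chr2:90937101-90939750, had 3437 and 2992 in the pDC libraries, against 3912 and 6200 in CDP. Here both pDC libraries lay below both CDP libraries, but the log2 ratio of -0.62 ± 0.24 (SE) missed the threshold (limma adjusted p 0.077). It passed without the first-listed CDP library, with -0.95 and an adjusted p of 0.035, and with equal autosomal totals, with -0.92 and an adjusted p of 0.010. It was -0.29 (adjusted p 0.24) without the second-listed CDP library and -0.52 (adjusted p 0.37) without the second-listed pDC library. On the log2 scale the 2.65 kb region differed from the region at the start by -1.11 ± 0.13 (SE). The region at the start differed from the small region before it by 1.05 ± 0.22 (SE). It held 31.9% and 31.0% of the promoter signal in the pDC libraries, against 16.9% and 18.2% in CDP.

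The lowest pDC signals of the window lay in 2 small regions, one inside the gene and one near the downstream end of the upstream block. At chr2:90941301-90941700, in the gene 4.3 to 4.7 kb past the start, pDC had 11 and 10, against 171 and 129 in CDP. This was the largest ratio of the window, with a limma log2 ratio of -3.70 ± 0.58 (SE) and an adjusted p of 0.0027, and it stayed past the threshold with any single library left out. At chr2:90929151-90929700, 7.85 to 7.3 kb before the start, pDC had 45 and 19, against 134 and 244 in CDP. The log2 ratio was -2.58 ± 0.61 (SE), with a limma adjusted p of 0.014, and the adjusted p was 0.089, 0.072 and 0.13 without the second-listed pDC, the first-listed CDP and the second-listed CDP library. Both are weak regions by level, with signals per kb at or below those of 89.7% and 89.6% of the list. A filter that left out the lowest 25% of the list by mean signal removed the region inside the gene, so that region has no result in that setting.

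**Figure D2:**
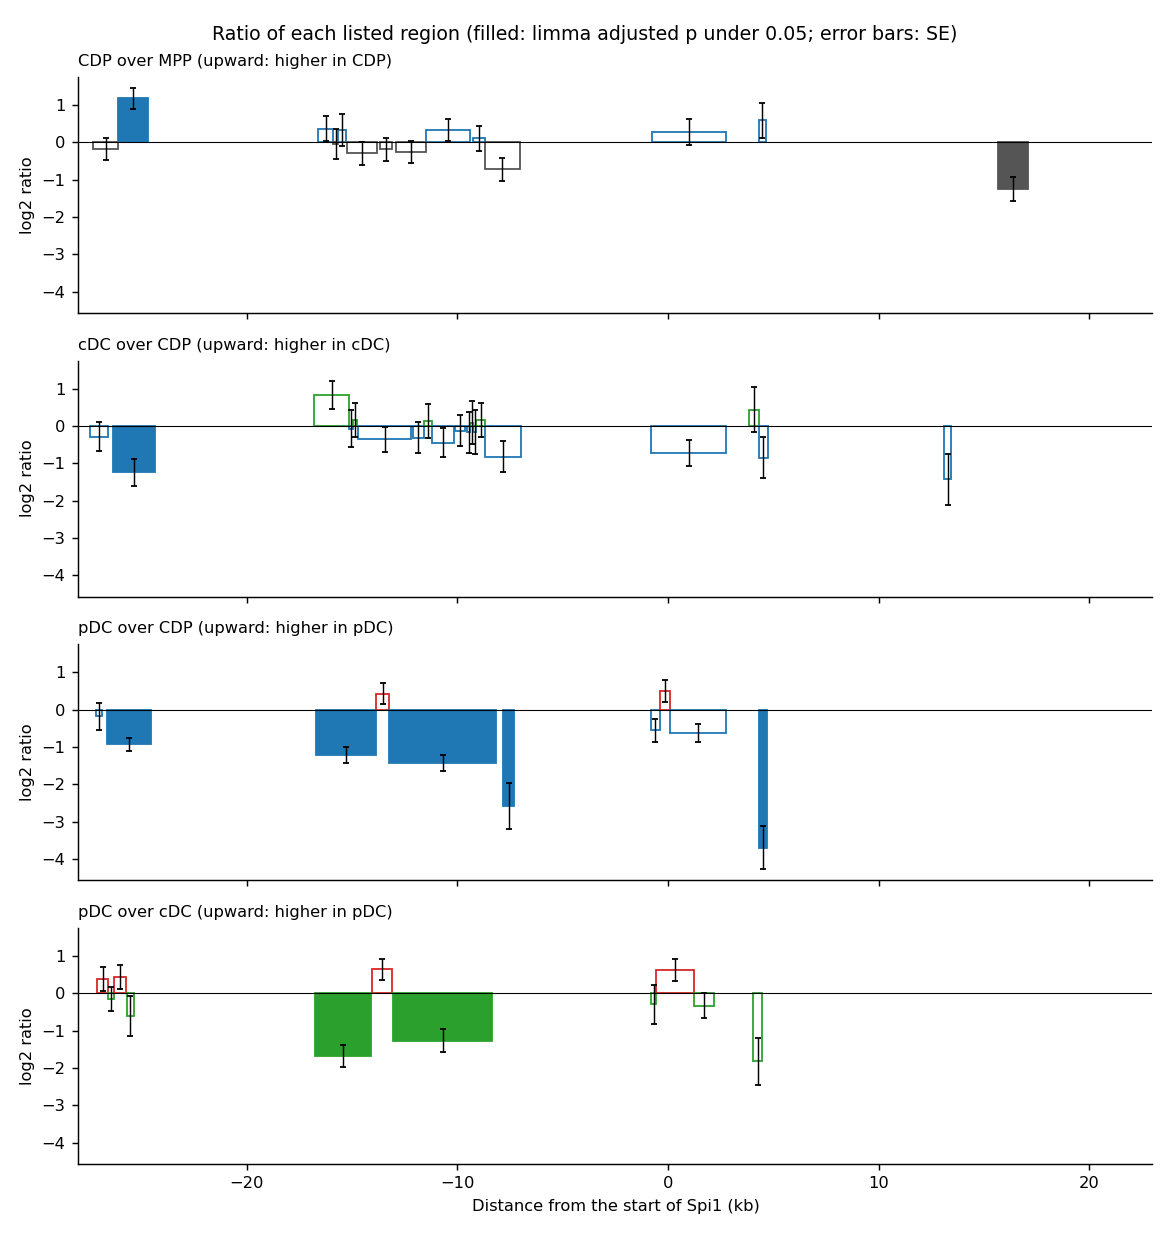
Limma log2 ratio of each listed region (vertical axis, bars with SE) against the distance from the start of Spi1 in kb (horizontal axis), in 1 panel per list; bar width is the region's length, colour gives the cell type with the higher signal, and filled bars have an adjusted p under 0.05. Between pDC and CDP the 5 filled bars all point down, to as low as -3.70, and the unfilled bars at the centres of the element and the promoter reach 0.43 and 0.50.

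Against cDC, pDC had the same arrangement in the upstream block, with a larger ratio before the centre. The pDC libraries are those of the previous comparison, so the 2 lists are not independent. The region chr2:90920251-90922900 had 927 and 1033 in the pDC libraries, against 2598 and 3812 in cDC. Its limma log2 ratio was -1.68 ± 0.30 (SE), with an adjusted p of 0.0032, which became 0.055 without the first-listed pDC library at a log2 ratio of -1.61. The region behind the centre, chr2:90923951-90928650, had 2034 and 2021 in the pDC libraries, against 3819 and 6310 in cDC, a log2 ratio of -1.28 ± 0.31 (SE) with an adjusted p of 0.013. Without either pDC library it no longer passed, with an adjusted p of 0.18 in both cases and log2 ratios of -1.28 and -1.27, nor without limma's trend (adjusted p 0.071). The centre, chr2:90922951-90923900, had 2994 and 2786 in the pDC libraries, against 1642 and 2088 in cDC, with no overlap. Its log2 ratio of 0.64 ± 0.28 (SE) did not pass (limma adjusted p 0.12). It was 0.81 (adjusted p 0.023) without the second-listed cDC library, 0.59 (adjusted p 0.64) without the first-listed pDC library, and 0.16 (adjusted p 0.43) with equal autosomal totals.

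The authors listed 4 of the 11 regions as higher in pDC than cDC (57.0% of the list) and 7 as lower (43.0%). Limma called 2 of the 11 window regions lower in pDC than cDC and 0 higher, where 9.32% of the list were called lower and 23.3% higher. At an unadjusted p under 0.05 there were 3 lower and 1 higher, with no share of the list to set beside them. Non-overlapping libraries with a ratio of at least 2 gave 3 lower (12.9% of the list) and 0 higher (28.0%). With equal autosomal totals limma called 5 regions, all lower in pDC, where 27.7% of the list were called lower and 21.4% higher. The median log2 ratio in the window was -0.30, beside 0.22 over the list. The 2 pDC libraries lay below both cDC libraries in 5 regions (26.0% of the list) and above them in 4 (41.8% of the list). All 7 pairs of neighbours again had opposite deposited directions, as had 81.2% of pairs over the list, and are described with no test. The centre exceeded the flank before it by 2.33 ± 0.15 (SE) on the log2 scale. The flank behind it differed from the centre by -1.92 ± 0.16 (SE). The centre held 50.3% and 47.7% of the upstream element signal in pDC, against 20.4% and 17.1% in cDC, in 11.4% of the length.

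At the promoter the size of the difference between pDC and cDC depended on the scaling. The region chr2:90936451-90938250 had 5671 and 4638 in the pDC libraries, against 2757 and 4053 in cDC. The libraries did not overlap, but the log2 ratio of 0.62 ± 0.30 (SE) did not pass (limma adjusted p 0.15). It passed without the second-listed cDC library, at 0.90 with an adjusted p of 0.027, and was 0.14 (adjusted p 0.55) with equal autosomal totals. Summed over the promoter, pDC had 6419 and 5329, against 3506 and 5137 in cDC, a ratio of 1.36 as deposited. With equal autosomal totals it was -0.0057 on the log2 scale, almost no difference beside an SD between libraries of 0.31. The region inside the gene, chr2:90941051-90941450, had 29 and 37 in the pDC libraries, against 86 and 164 in cDC, with a log2 ratio of -1.83 ± 0.64 (SE) and a limma adjusted p of 0.057. It passed in 4 of 9 settings, among them equal autosomal totals, with -2.30 and an adjusted p of 0.0096, and was -1.66 (adjusted p 0.27) without the first-listed pDC library.

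Regions with neighbours of the opposite direction on both sides were common in all 4 lists, and they were counted. Of the 35115 regions listed as higher in pDC than CDP, 3244 or 9.24% had a region listed as lower in pDC within 100 bp on both sides, and their median length was 0.4 kb. In the window both regions listed as higher in pDC than CDP were of this kind, at the element and at the promoter. In the list of pDC and cDC, 3262 of 37832 regions higher in pDC were of this kind, or 8.62%, against 3 of the 4 in the window. Of the 6 window regions higher in cDC than CDP, 4 were of this kind (15.9% in that list), as were 2 of the 13 lower ones (10.7%). Between CDP and MPP it was 1 region higher in CDP (10.1% in the list) and 1 lower (9.58%). The deposited direction of each region chose these counts, so they describe the lists and were not tested.

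**Figure D3:**
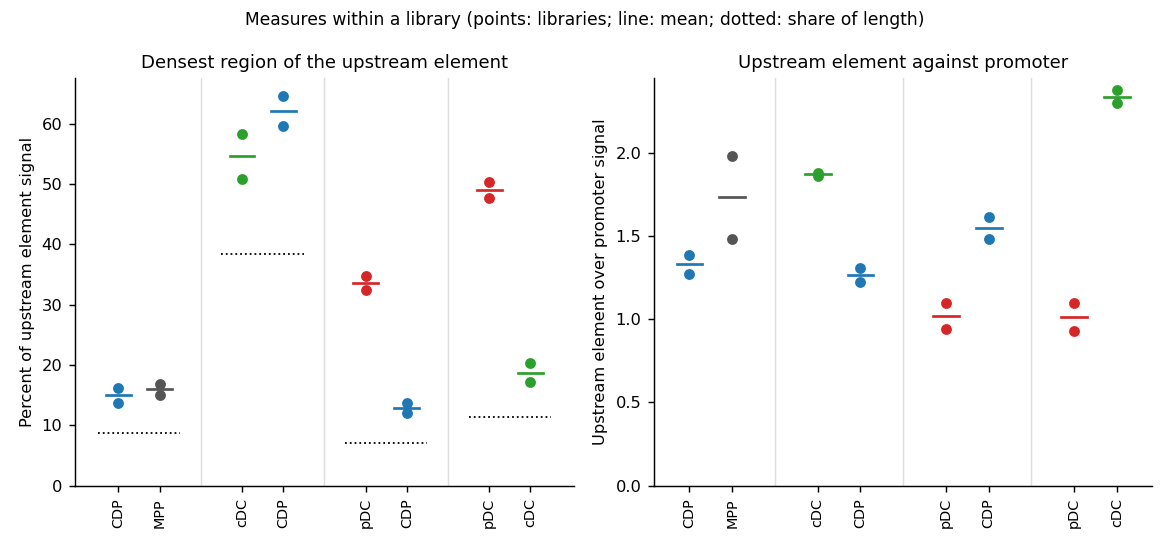
Left, percent of the upstream element signal that lies in its densest listed region, with a dotted line at that region's percent of the listed length; right, upstream element signal over promoter signal. Points are libraries and lines are means, in list order with the later cell type to the left; the densest region spans 0.6 kb between CDP and MPP, 2.5 kb between cDC and CDP, 0.6 kb between pDC and CDP and 0.95 kb between pDC and cDC, and the pDC libraries have the lowest upstream element to promoter ratios, at 0.928 to 1.10.

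In cDC, set against CDP, the strongest part of the element did not separate the groups, and the promoter was listed as lower. The region with the most signal in the element, chr2:90922301-90924800, had 3956 and 5072 in the cDC libraries, against 4518 and 7196 in CDP. The groups overlapped, and the log2 ratio was -0.35 ± 0.34 (SE), with a limma adjusted p of 0.53. The promoter region, chr2:90936201-90939750, had 3644 and 5305 in the cDC libraries, against 5799 and 9088 in CDP, with both cDC libraries below both CDP libraries. Its log2 ratio of -0.72 ± 0.34 (SE) did not pass (limma adjusted p 0.13), while with equal autosomal totals it was -0.63 with an adjusted p of 0.033. Without the second-listed CDP library it was -0.40 (adjusted p 0.88). The authors' deposited −log10 p for this region was 163. At the outer edge of the element, chr2:90920201-90921850, 16.8 to 15.15 kb before the start, cDC had 1123 and 1988, against 758 and 919 in CDP. The log2 ratio of 0.84 ± 0.38 (SE) did not pass (limma adjusted p 0.12), but it did without the first-listed cDC library (1.25, adjusted p 0.041) and with equal totals (0.94, adjusted p 0.018). Without the second-listed cDC library it was 0.43 (adjusted p 0.39), and without the first-listed CDP library 0.70 (adjusted p 0.61).

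The authors listed 6 of the 19 regions as higher in cDC than CDP (42.9% of the list) and 13 as lower (57.1%). Limma called 1 of the 19 window regions lower in cDC than CDP and 0 higher, where 14.4% of the list were called lower and 7.64% higher. At an unadjusted p under 0.05 there were 3 lower and 1 higher, with no share of the list to set beside them. Non-overlapping libraries with a ratio of at least 2 gave 2 lower (21.87% of the list) and 0 higher (11.03%). Libraries did not overlap in 5 regions that were lower in cDC (36.0% of the list) and in 1 that was higher (22.0% of the list). The median log2 ratio was -0.17 in the window and -0.19 over the list. The steepest region of this comparison, chr2:90950101-90950450, 13.1 to 13.45 kb past the start, had 35 and 36 in the cDC libraries, against 91 and 103 in CDP, with a log2 ratio of -1.42 ± 0.68 (SE) and a limma adjusted p of 0.14.

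Between CDP and MPP the strongest region of the upstream element, the summed element and the promoter did not separate. The strongest element region, chr2:90921751-90923200, had 1922 and 2892 in the CDP libraries, against 2962 and 2824 in MPP, with a log2 ratio of -0.29 ± 0.30 (SE) and a limma adjusted p of 0.55. The promoter region, chr2:90936251-90939750, had 4746 and 7777 in the CDP libraries, against 5902 and 4229 in MPP, with a log2 ratio of 0.28 ± 0.34 (SE) and a limma adjusted p of 0.62. In both the groups overlapped. All 7 regions of the element lay between log2 ratios of -0.29 and 0.37, and none of them passed limma's threshold. The libraries did not overlap in 1 of them, chr2:90920401-90921100, which had 264 and 346 in the CDP libraries, against 214 and 255 in MPP. The interior of the gene held a region listed between CDP and MPP only, chr2:90952651-90954100, 15.65 to 17.1 kb past the start. It had 185 and 204 in the CDP libraries, against 489 and 434 in MPP, so that it fell in CDP with a log2 ratio of -1.24 ± 0.32 (SE) and a limma adjusted p of 0.010. Without the first-listed or the second-listed MPP library its adjusted p was 0.11 and 0.079, at -1.16 and -1.33.

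The authors listed 7 of the 14 regions as higher in CDP than MPP (45.7% of the list) and 7 as lower (54.3%). Limma called 2 of the 14, where 19.4% of the list were called in either direction. These were the region inside the gene and a region far upstream, which was higher in CDP. Libraries did not overlap in 3 regions that were higher in CDP (26.8% of the list) and in 2 that were lower (32.2% of the list). The median log2 ratio was 0.03 in the window and -0.11 over the list.

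The region called higher in CDP than MPP lay far upstream, and at about the same place CDP was also the higher group in the lists with cDC and pDC. In chr2:90910901-90912300, 26.1 to 24.7 kb before the start, CDP had 1441 and 1582, against 678 and 655 in MPP. The log2 ratio was 1.18 ± 0.28 (SE), with a limma adjusted p of 0.0057, and the adjusted p was 0.060 without the second-listed MPP library at 1.15 and 0.054 without limma's trend. In chr2:90910651-90912650, cDC had 801 and 1234, against 2308 and 2390 in CDP, a log2 ratio of -1.24 ± 0.36 (SE) with a limma adjusted p of 0.012. That call was lost without the first-listed cDC library (-0.93, adjusted p 0.070) and without the first-listed (-1.26, adjusted p 0.19) or second-listed (-1.21, adjusted p 0.22) CDP library, and without limma's trend (adjusted p 0.11). In chr2:90910351-90912450, pDC had 1309 and 1387, against 2444 and 2700 in CDP, a log2 ratio of -0.93 ± 0.18 (SE) with a limma adjusted p of 0.0063. All 3 lists use the same CDP libraries. Between pDC and cDC the 4 far upstream regions, of 0.3 to 0.55 kb, had log2 ratios between -0.61 and 0.43, and none of them passed limma's threshold as deposited.

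The element was summed over the regions that lie mostly 10 to 20 kb before the start, which reach to 8.15 kb in the list of pDC and CDP and to 8.35 kb in that of pDC and cDC. In pDC the sum was 5174 and 5144, against 8274 and 12065 in CDP, over 8.55 kb, a ratio of 0.507. In the other list the pDC sum was 5955 and 5840, against 8059 and 12210 in cDC, over 8.3 kb, a ratio of 0.582. Both pDC libraries lay below both libraries of the other cell type. Of the remaining pairs, cDC had 6790 and 9977, against 7575 and 11139 in CDP, over 6.5 kb, a ratio of 0.896. CDP had 6591 and 9908, against 8763 and 8386 in MPP, over 6.85 kb, a ratio of 0.962. The libraries of these pairs overlapped, so the order of cDC and CDP and that of CDP and MPP were not resolved beyond their spread. The regions summed were listed as differing between these same libraries. Of their length, 7.95 of 8.55 kb was listed as lower in pDC than CDP, and 7.35 of 8.3 kb as lower in pDC than cDC. The lower pDC sums follow in part from that listing and describe the listed regions only. No list sets pDC or cDC against MPP. An exact two-sided permutation test of 2 libraries against 2 cannot go below 0.333, which is the value both pDC sums gave.

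The promoter sums had another order. The cDC sum of 3644 and 5305 lay below the CDP sum of 5799 and 9088, a ratio of 0.601 (exact permutation p 0.333, the smallest possible). In pDC it was 5493 and 4675, against 5118 and 8124 in CDP, a ratio of 0.768, and the libraries overlapped. Between CDP and MPP the ratio was 1.24 with overlapping libraries. The ratio of element to promoter signal within a library does not depend on scaling. It was 0.942 and 1.10 in pDC, against 1.62 and 1.49 in CDP. In the list of pDC and cDC it was 0.928 and 1.10 in pDC, against 2.30 and 2.38 in cDC. It was 1.86 and 1.88 in cDC, against 1.31 and 1.23 in CDP, and 1.39 and 1.27 in CDP, against 1.48 and 1.98 in MPP. In each of these 4 lists the ratios of the 2 groups did not overlap, with pDC below CDP and cDC, cDC above CDP, and CDP below MPP. The values of 1.39 in CDP and 1.48 in MPP were close beside the spread of the MPP libraries. These ratios were not tested, and 2 libraries against 2 could not go below an exact permutation p of 0.333. The lists share libraries, and the summed regions were listed as differing between them, so the 4 results are not independent. The listed lengths behind it differ between lists.

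**Figure D4:**
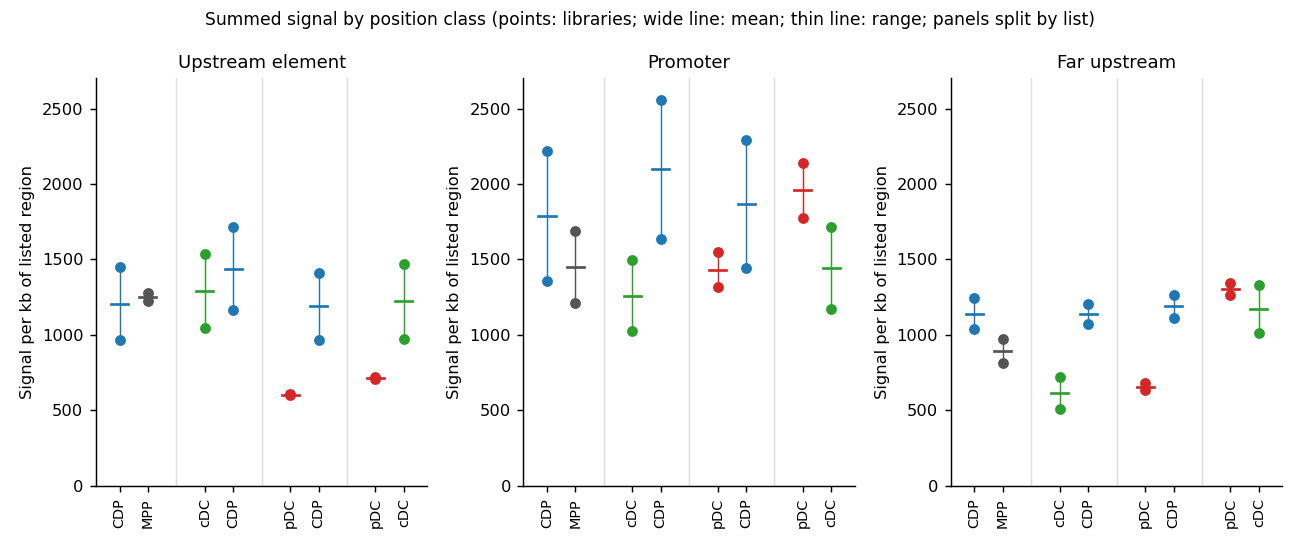
Signal per kb summed over the listed regions (vertical axis) of the upstream element (regions mostly 10 to 20 kb before the start), the promoter (within 2 kb of the start) and the far upstream block, by cell type within each list, with points for libraries, a wide line for the mean and a thin line for the range. In the upstream element the pDC libraries lie between 602 and 717 per kb, below every library of CDP and cDC in the same lists, while at the promoter pDC and CDP overlap.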

How the data were processed

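The samples are 8 H3K27ac libraries. Not analysed here were 4 input and 4 RNA samples. Per the submitters' processing notes, reads were aligned with BWA 0.6.1 to mm9. THOR, which calls regions that differ between groups of libraries, is named in the title of the series, and its settings were not given in the sources used. The authors' deposited lists give each region a direction, the signal of 2 libraries per group, in a unit other than read counts, and −log10 of a p-value. Per the labels, the antibody's supplier differs between the sample labels and the protocol. A last column was not used.

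Values were assigned to groups by the order in the list names. In regions with identical bounds in 2 lists, values assigned to the same library differed by a nearly constant factor of 0.807 to 1.14 (log2 SD at most 0.059 in 10 pairs), and the SD of the remaining 86 was 0.52 or more. MPP occurs in 1 list, so its values could not be matched to another list. Their place rests on that list's name and on elimination, since the CDP values of that list matched those of the lists with cDC and pDC.

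Per region, limma 3.58.1 in R 4.3.3 (trend on mean signal) was fitted to log2(signal + 1) of all regions of a list, with Benjamini-Hochberg adjustment over the list and a threshold of 0.05. Log2 ratios of regions are limma's; ratios of sums divide the 2 group means, each with a pseudocount of 1. The fits were tested on simulated data. A p that misses the threshold does not show that the groups were alike. Differences in log2 ratio between neighbouring regions, with SE, come from limma with a trend on the weaker region. A test of them, added after the values were seen, is not reported, since the regions' bounds fix their sign. Regions were put in position classes by largest overlap: more than 20 kb upstream, 20 to 10 kb (the element), 10 to 2 kb, within 2 kb of the start, and the gene. In full are given the regions with the most signal in the element and promoter classes and the largest log2 ratio of each list; the other regions named were chosen after their values were seen. The window and classes were chosen with earlier results of these data known. Genes of the PU.1 pathway and of like pattern were to be named only with an annotation of mm9, so none are given. Figures used Python 3.11.15, numpy 2.4.6, pandas 2.3.3, scipy 1.17.1 and matplotlib 3.10.9.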

Additional observations from a re-analysis of the deposited data

How the results depend on the processing

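Of 144 recomputed log2 ratios of sums, 126 moved by less than the spread between libraries. That count includes settings that could move little: classes set by midpoint left every sum unchanged. It also includes changes of sign within the spread. One was the promoter of CDP over MPP, from 0.31 to -0.094 without the second-listed CDP library. With equal autosomal totals, pDC over CDP became -1.04 for the window, -1.26 for the element and -4.02 for the gene body (-3.32 with a pseudocount of 5). Pseudocounts of 0.5 and 5 moved no other sum beyond that spread. With equal totals, pDC over cDC became -0.69 for the window, -1.23 for the element and -0.0057 for the promoter, where almost no difference was left. CDP over MPP became -0.63 for the gene body. Equal totals moved the count of regions called to 5 for pDC over cDC and 3 for cDC over CDP, which gave 2 by non-overlapping libraries with a ratio of at least 2. Without trend, 1 region was called for CDP over MPP (7.51% of the list lower and 4.92% higher). None was called for cDC over CDP (10.2% of the list lower and 4.40% higher). The cause of these shifts was not tested.

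Leaving out 1 library at a time, log2 ratios for CDP over MPP ran from -0.23 to 0.33 for the window and from -0.38 to 0.21 for the element. For cDC over CDP the gene body ran from -0.98 to -0.088. For pDC over CDP the window ran from -0.99 to -0.46, the element from -1.23 to -0.68, the promoter from -0.68 to -0.0096 and the gene body from -3.90 to -3.50. For pDC over cDC the window ran from -0.50 to 0.069, the element from -1.05 to -0.45 and the gene body from -2.28 to -1.36. Regions called ran from 0 to 2 for CDP over MPP, 0 to 1 for cDC over CDP, 1 to 5 for pDC over CDP and 0 to 4 for pDC over cDC. The counts of regions called merge both directions, and the share of the whole list called changed between the same settings as well. These counts therefore cannot be read as changes of the window alone. With 1 library left in a group, limma assumes that it varies like the others. No paired analysis was possible because the deposited values carry no replicate numbers. The read depth is unknown, so no counting error could be given.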
